A study of Caenorhabditis elegans with 12 samples.

Results

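The 6 vitellogenin genes of Caenorhabditis elegans, vit-1 to vit-6, and the intestinal protease genes cpr-4 and asp-3 were followed by gene name through small RNA libraries of whole young-mother worms. They are 8 genes of the 42048 listed in the deposited tables, and all 8 were found. The meg-3 meg-4 worms carried meg-3(ax3055) and meg-4(ax3052), the rde-11 worms carried rde-11(hj37), and N2 is the wild-type strain. All worms, N2 included, were starvation-synchronized, kept at 20 °C and fed HT115 bacteria making pos-1 double-stranded RNA of 400 nt, so no library comes from worms without RNA interference. RNA entered the small RNA kit after treatment with 5′ polyphosphatase (treated RNA) or without it (untreated RNA). Each of the 6 groups, which are meg-3 meg-4, rde-11 and N2 in treated RNA and the same strains in untreated RNA, had 2 libraries. The titles of meg-3 meg-4 replicate 2 name the strain JH3745, whereas its genotype label, like that of replicate 1, names JH3475.

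Vitellogenins are the yolk proteins of the worm. They are lipid-binding proteins made in the intestine of adult hermaphrodites, secreted into the body cavity and taken up by oocytes through the receptor RME-2. The vit-6 product is cut into a pair of smaller yolk proteins, whereas those of vit-1 to vit-5 stay whole. CPR-4 is a cathepsin B-like cysteine protease and ASP-3 a cathepsin D-like aspartic protease of lysosomes. The reads counted here are small RNAs assigned to these genes, not their messenger RNA. In worms, RNA-dependent RNA polymerases copy transcripts into 22G RNAs with a 5′ triphosphate, which the kit captures only after polyphosphatase treatment. Small RNAs with a 5′ monophosphate, and pieces of messenger RNA with that end, are captured without it.

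Between 3884534 and 5278777 gene-assigned reads made up a library. Levels are in fpm, reads scaled to a common total of gene-assigned reads with no length correction, and 1 read was worth 0.189 to 0.257 fpm. No member is abundant, and the 6 yolk genes together had 104 to 447 reads in a library. Strand is not given, so antisense small RNAs and sense pieces of the messenger RNA cannot be told apart. In whole worms, fewer intestinal cells and fewer small RNAs in each cell cannot be told apart either. vit-2, vit-3, vit-4 and cpr-4 each overlap 1 annotated gene on the opposite strand, which for cpr-4 is a piRNA gene, 21ur-14330. vit-3 and vit-4 lie close together on chromosome X and are near-identical copies, so reads could have been split between them or dropped, and their values are uncertain. Reads shared among other yolk genes were not examined, so the same limit may hold for vit-1, vit-2 and vit-5. vit-1, vit-2, vit-5 and asp-3 also lie on X, vit-6 on chromosome IV and cpr-4 on chromosome V.

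Per kilobase of exon, small RNAs of the yolk genes fell into a higher set of vit-6, vit-2 and vit-1, an intermediate vit-5, and a low pair of vit-3 and vit-4. In treated RNA of N2, cpr-4 stood at 5.29 ± 1.20 fpm per kb, vit-6 at 4.95 ± 0.461, vit-2 at 4.01 ± 0.467, asp-3 at 3.96 ± 0.867 and vit-1 at 3.28 ± 0.397 (mean ± SD, n = 2). Neighbours in this order from cpr-4 to vit-1 differed by less than the sum of their SDs or close to it, and are not ranked against each other. vit-5 stood lower at 1.24 ± 0.330 fpm per kb, vit-3 at 0.339 ± 0.0694 and vit-4 at 0.176 ± 0.0434, steps that each exceeded the SDs. The last step rests on 7 and 8 against 5 and 3 reads, whose 95% exact Poisson intervals overlap, so vit-3 and vit-4 are not ranked. In treated RNA vit-4 lay above vit-3 in meg-3 meg-4 (0.528 against 0.388 fpm per kb) and in rde-11 (0.222 against 0.183 fpm per kb). In untreated RNA of N2 the order differed, with vit-6 (2.85 ± 1.64 fpm per kb) and vit-2 (1.98 ± 0.731 fpm per kb) first. The proteases cpr-4 (0.586 ± 0.543 fpm per kb) and asp-3 (0.612 ± 0.0178 fpm per kb) stood there beside vit-5 (0.759 ± 0.0545 fpm per kb).

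**Figure D1:**
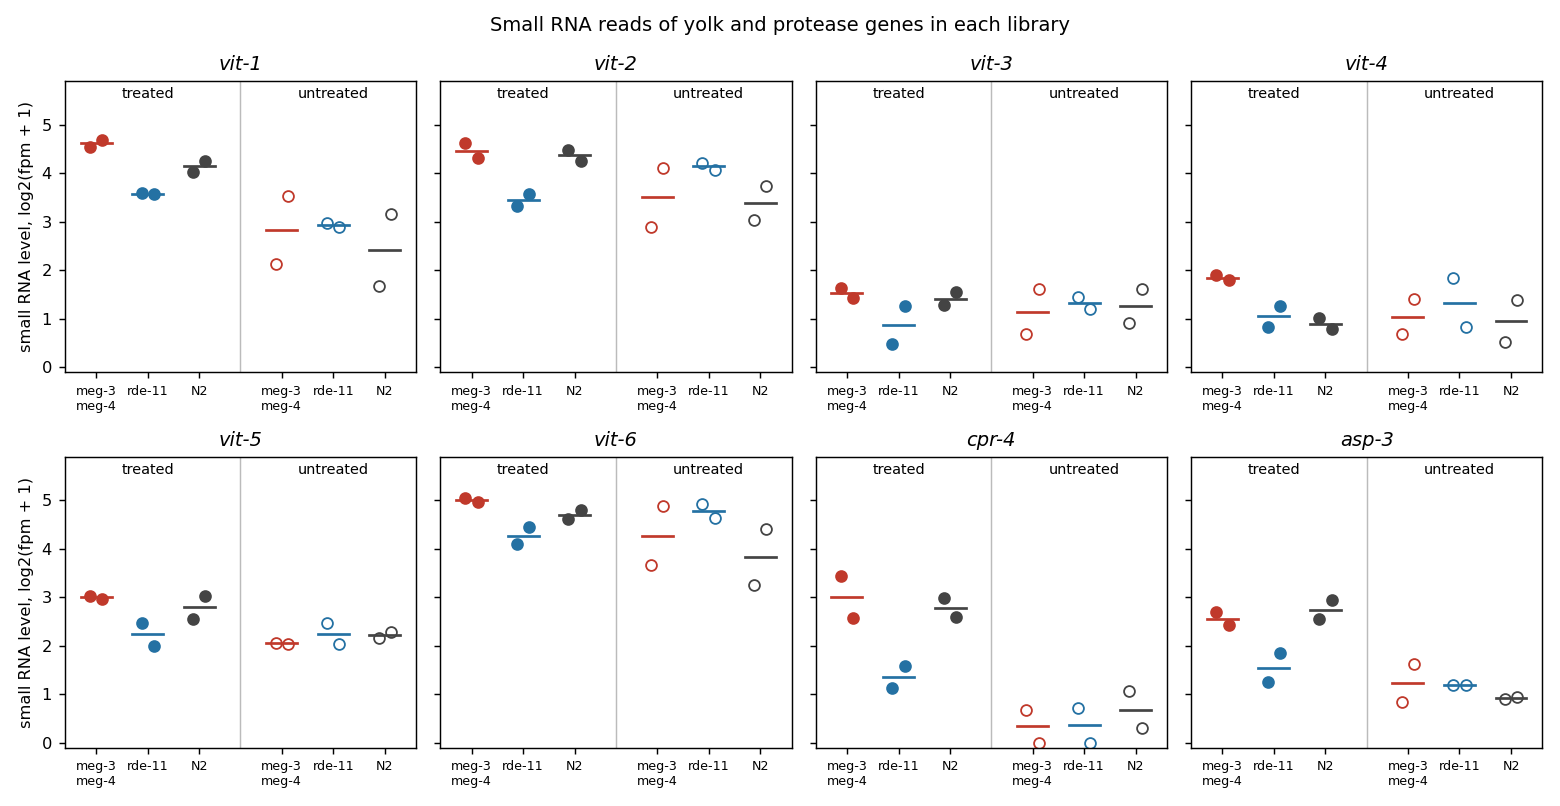
Small RNA level of each gene in every library, as log2(fpm + 1) on the vertical axis, for meg-3 meg-4, rde-11 and N2 in treated RNA (filled points) and untreated RNA (open points), with bars at the mean of 2 libraries. In treated RNA both rde-11 points lie below both N2 points for every gene except vit-4, and in untreated RNA cpr-4 lies at or near 0 in all strains. For vit-3 the nearest points of rde-11 and N2 in treated RNA, at 1.41 and 1.43 fpm, are 7 reads each.

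In rde-11 treated RNA, limma called small RNAs of vit-2, cpr-4 and asp-3 lower than in N2, calls that ended in some other settings given below. RDE-11, a protein with a zinc finger, is needed to amplify exogenous RNA interference, and none of these genes was the fed target. vit-2 stood at 9.04 and 10.9 fpm in rde-11 (46 and 54 reads), against 21.4 and 18.1 fpm in N2 (105 and 76 reads). Both rde-11 libraries were thus below both N2 libraries, with a log2 change of -0.92 ± 0.21 SE (limma adjusted p = 0.0156). cpr-4 stood at 1.18 and 2.01 fpm in rde-11 (6 and 10 reads), against 6.93 and 5.01 fpm in N2 (34 and 21 reads). Its log2 change was -1.43 ± 0.30 SE (limma adjusted p = 0.0094), from few reads in the mutant. asp-3 stood at 1.38 and 2.62 fpm in rde-11 (7 and 13 reads), against 4.89 and 6.68 fpm in N2 (24 and 28 reads), a log2 change of -1.20 ± 0.30 SE (limma adjusted p = 0.0251).

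The other yolk genes had lower values in rde-11 without passing the test, apart from vit-4. vit-1 stood at 11.01 and 10.87 fpm in rde-11, against 15.3 and 18.1 fpm in N2 (log2 change -0.56, limma adjusted p = 0.105). vit-6 stood at 16.1 and 20.7 fpm in rde-11, against 23.4 and 26.7 fpm in N2 (log2 change -0.43, limma adjusted p = 0.194). The groups of these 2 genes did not overlap in fpm, and neither did those of vit-5 and vit-3. vit-5 stood at 4.52 and 3.02 fpm in rde-11, against 4.89 and 7.16 fpm in N2 (log2 change -0.56, limma adjusted p = 0.236). vit-3 had 2 and 7 reads in rde-11 and 7 and 8 in N2 (log2 change -0.54, limma adjusted p = 0.388). vit-4 had 4 and 7 reads in rde-11 and 5 and 3 in N2, and was below the filter of a mean of 1 fpm.

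Of the 7 members tested in rde-11, 3 were called lower and 0 higher, where 4.48% of the 16491 genes tested were called lower. edgeR called 4, the added one being vit-1 (edgeR adjusted p = 0.0369). The median log2 change of the 7 was -0.56, against 0.11 over all genes tested. Protein-coding genes in the members' range of mean level, 1.28 to 21.8 fpm, had a median of 1.16e-04, and 5.25% of them were called lower. All 7 tested members had both rde-11 libraries below both N2 libraries, which held for 20.4% of all genes tested. For vit-3 this rested on scaling to the library total, with 7 reads in rde-11 replicate 2 (1.41 fpm) and 7 in N2 replicate 1 (1.43 fpm). The median gene of at least 50 fpm moved by 0.23 on the log2 scale and the median microRNA of that level by -0.09, and all 7 members stayed negative with either set to 0.

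All 3 calls in rde-11 ended without a filter on low values (adjusted p = 0.0868 for vit-2, 0.0934 for cpr-4 and 0.149 for asp-3, limma) and with all 3 strains in 1 fit (0.0724, 0.0658 and 0.071), settings that leave the log2 changes as they are. DESeq2 on the recovered reads did not call asp-3 (DESeq2 adjusted p = 0.0971). Without rde-11 replicate 1, cpr-4 alone was called, and vit-2 (limma adjusted p = 0.0635) and asp-3 (0.111) were not. Without N2 replicate 1 the vit-2 call ended (limma adjusted p = 0.0619), and without N2 replicate 2 that of asp-3 (0.0579). The authors' deposited table gives vit-2 a log2 change of -1.09 with an adjusted p of 0.0426, and does not call cpr-4 (-2.01, 0.0629) or asp-3 (-1.63, 0.162).

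In meg-3 meg-4 treated RNA, from worms lacking a pair of disordered proteins of the germ granules, no member was called, where 8.27% of 16253 genes were called in either direction. edgeR also called 0 of the 8, and 1 member, vit-4, had an unadjusted p under 0.05. vit-1 stood at 22.2 and 24.8 fpm in meg-3 meg-4 (105 and 131 reads), against 15.3 and 18.1 fpm in N2 (75 and 76 reads). These groups did not overlap, and the log2 change was 0.47 ± 0.24 SE (limma adjusted p = 0.35). vit-6 stood at 31.9 and 30.1 fpm in meg-3 meg-4, against 23.4 and 26.7 fpm in N2 (log2 change 0.30, limma adjusted p = 0.581). vit-4 had 13 reads in each meg-3 meg-4 library, against 5 and 3 reads in N2 (log2 change 0.95 ± 0.29 SE, limma adjusted p = 0.11). These 3 genes were the members with both mutant libraries above both N2 libraries, which held for 12.5% of all genes tested.

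The remaining members overlapped between meg-3 meg-4 and N2. vit-2 stood at 23.7 and 18.8 fpm in meg-3 meg-4, against 21.4 and 18.1 fpm in N2 (log2 change 0.09, limma adjusted p = 0.907). vit-5 stood at 7.19 and 6.82 fpm in meg-3 meg-4, against 4.89 and 7.16 fpm in N2 (log2 change 0.21, limma adjusted p = 0.787). cpr-4 stood at 9.93 and 4.93 fpm in meg-3 meg-4, against 6.93 and 5.01 fpm in N2, with the mutant libraries on either side of both N2 libraries (log2 change 0.22, limma adjusted p = 0.83). asp-3 stood at 5.50 and 4.36 fpm in meg-3 meg-4, against 4.89 and 6.68 fpm in N2 (log2 change -0.19, limma adjusted p = 0.813), and vit-3 at 2.11 and 1.70 fpm against 1.43 and 1.91 fpm (log2 change 0.13, limma adjusted p = 0.888). The median over the 8 was 0.21, against -0.13 over all genes tested, and 7 of the 8 log2 changes were above 0. That sign depended on scaling for vit-2, vit-3, vit-5 and cpr-4, whose log2 changes were below 0 when the median microRNA, which stood 0.24 higher in the mutant, was set to 0.

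The mutants were also compared directly, with libraries shared with the comparisons above. In treated RNA, small RNAs of 5 members were called higher for meg-3 meg-4 than for rde-11 and 0 lower, where 4.55% of 16340 genes were called higher and 12.6% lower in limma over the 6 libraries. With microRNAs centred these shares were 2.83% and 41.2%. edgeR called 6. cpr-4 stood at 9.93 and 4.93 fpm in meg-3 meg-4, against 1.18 and 2.01 fpm in rde-11, a log2 difference of 1.65 ± 0.34 SE (limma adjusted p = 0.0117). vit-1 stood at 22.2 and 24.8 fpm in meg-3 meg-4, against 11.01 and 10.87 fpm in rde-11 (log2 difference 1.04 ± 0.21 SE, limma adjusted p = 0.0107). The replicates of this gene lay close together in both mutants.

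vit-2 was higher for meg-3 meg-4 than for rde-11 by 1.02 ± 0.23 SE on the log2 scale (limma adjusted p = 0.0168). asp-3 was higher by 1.01 ± 0.29 SE (limma adjusted p = 0.047), and vit-6 by 0.73 ± 0.21 SE (limma adjusted p = 0.0475). vit-5 (log2 difference 0.76, limma adjusted p = 0.0891), vit-4 (0.80, 0.0993) and vit-3 (0.66, 0.212) were not called. In all 8 members both meg-3 meg-4 libraries lay above both rde-11 libraries, against 15.1% of all genes tested, and the median difference of the 8 was 0.90, against -0.28 over all genes. The vit-6 and asp-3 calls ended with microRNAs centred (limma adjusted p = 0.194 and 0.106), without a filter on low values (0.0834 and 0.128) and with the 4 mutant libraries alone (0.0933 and 0.0702). Without rde-11 replicate 1, none of the 8 was called, and without rde-11 replicate 2 only cpr-4 was.

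**Figure D2:**
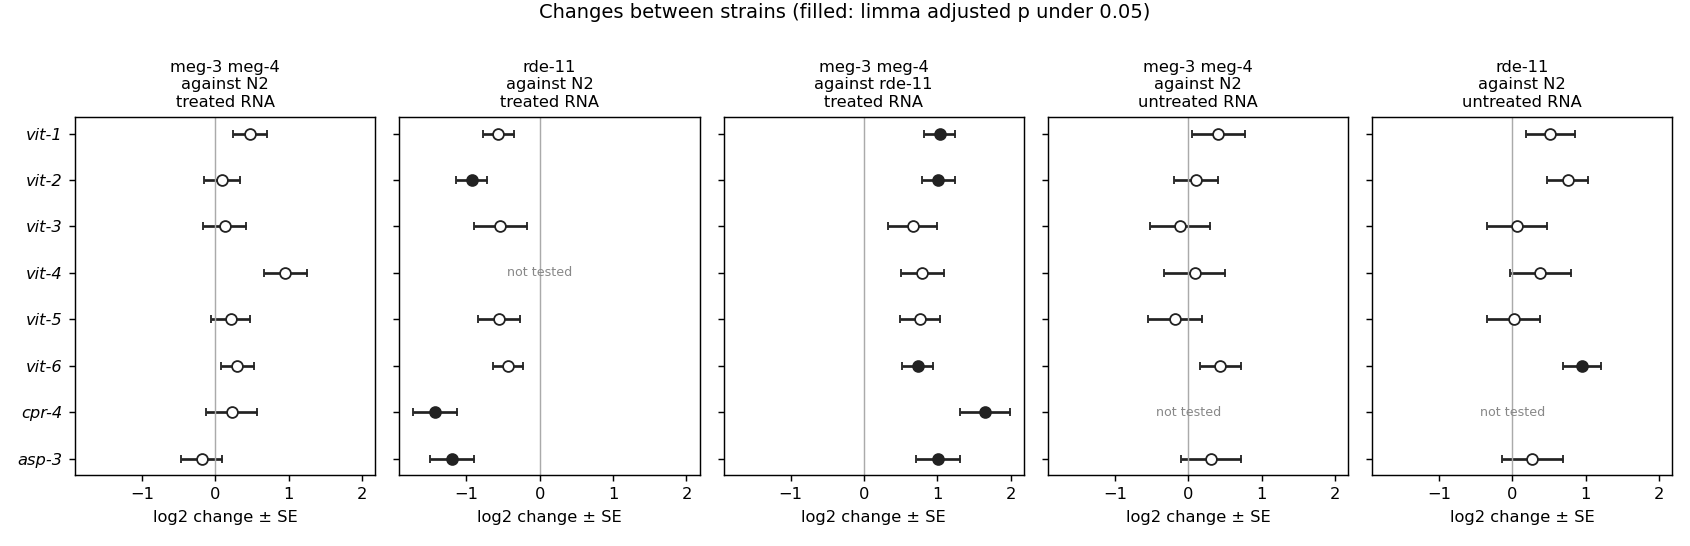
Log2 change with its standard error for each gene in 5 comparisons between strains, from limma on log2(fpm + 1), with filled points at an adjusted p under 0.05. The rde-11 values in treated RNA all lie left of 0, the differences of meg-3 meg-4 from rde-11 all lie right of it, and in untreated RNA vit-6 in rde-11 is the one filled point.

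In untreated RNA the replicates of meg-3 meg-4 and of N2 lay far apart for several yolk genes. No member was called in meg-3 meg-4, where 0.238% of 10902 genes were called, by limma or edgeR, and 0 had an unadjusted p under 0.05. vit-6 stood at 11.7 and 28.4 fpm in meg-3 meg-4, against 8.55 and 20.3 fpm in N2 (log2 change 0.44, limma adjusted p = 0.599). vit-1 stood at 3.39 and 10.6 fpm in meg-3 meg-4, against 2.19 and 7.99 fpm in N2 (log2 change 0.41, limma adjusted p = 0.744). In both groups replicate 2 was well above replicate 1. In N2 these were 10 and 35 reads of vit-1, with 95% exact Poisson intervals for counting error of 4.80 to 18.4 and 24.4 to 48.7 reads. vit-6 in meg-3 meg-4 was called without N2 replicate 2 (limma adjusted p = 0.0402). The replicates of vit-5 lay closer, at 3.19 and 3.11 fpm in meg-3 meg-4 and 3.51 and 3.88 fpm in N2 (log2 change -0.18, limma adjusted p = 0.911). The log2 changes were 0.31 for asp-3, 0.11 for vit-2, 0.09 for vit-4 and -0.11 for vit-3, with limma adjusted p-values of 0.846 to 0.961.

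vit-6 was the 1 member of 7 tested that was called higher in untreated RNA of rde-11, where 0.396% of 11629 genes were called higher. It stood at 29.4 and 23.9 fpm in rde-11 (137 and 93 reads), against 8.55 and 20.3 fpm in N2 (39 and 89 reads). The groups did not overlap, but the N2 libraries lay further apart than the rde-11 libraries (log2 change 0.95 ± 0.26 SE, limma adjusted p = 0.0427). The share of all genes without overlap was not computed in untreated RNA. The call ended without any 1 of the 4 libraries (adjusted p = 0.208 to 0.865), with edgeR (0.323), with a pseudocount of 0.5 (0.057), without a filter (0.746) and with all 3 strains in 1 fit (0.323). vit-2 stood at 17.6 and 15.7 fpm in rde-11, against 7.23 and 12.3 fpm in N2, and was not called (log2 change 0.75, limma adjusted p = 0.253). vit-1 (log2 change 0.51), vit-4 (0.38), asp-3 (0.27), vit-3 (0.06) and vit-5 (0.02) were not called either, with adjusted p-values of 0.579 to 0.991. cpr-4 had 3 and 0 reads in rde-11, 3 and 0 in meg-3 meg-4 and 5 and 1 in N2, and was not tested. The libraries with 0 reads have a 95% exact Poisson upper limit of 0.764 fpm for meg-3 meg-4 replicate 2 and 0.950 fpm for rde-11 replicate 2.

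The rde-11 means of vit-1, vit-2, vit-3, vit-5, vit-6 and asp-3 thus lay below N2 in treated RNA and above it in untreated RNA. In untreated RNA the median log2 change over all genes tested was 0.19, and 65% of protein-coding genes were above 0. vit-1, vit-2, vit-6 and asp-3 lay above that median. vit-3 (0.06) and vit-5 (0.02) lay below it, and were negative with edgeR and with the median gene centred. The difference between treated and untreated changes was tested as an interaction over 8 libraries, chosen after the values were seen. It was -1.67 ± 0.37 SE on the log2 scale for vit-2 (limma adjusted p = 0.112), -1.47 ± 0.37 SE for asp-3 (0.172), -1.38 ± 0.47 SE for vit-6 (0.364), -1.11 for cpr-4 (0.513) and -1.08 for vit-1 (0.609). For vit-3, vit-5 and vit-4 it was -0.60 (limma adjusted p = 0.793), -0.58 (0.747) and -0.23 (0.965). None of the 8 passed, where 0.455% of 16916 genes did, and 4 had an unadjusted p under 0.05. In meg-3 meg-4, none of the 8 passed either, where 3.38% of 16459 genes did, and 0 had an unadjusted p under 0.05. Their values were 0.86 for vit-4, 0.57 for cpr-4, 0.38 for vit-5, 0.24 for vit-3, 0.06 for vit-1, -0.02 for vit-2, -0.14 for vit-6 and -0.50 for asp-3.

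Between treated and untreated RNA, the log2 changes of the yolk genes were smaller than those of most protein-coding genes. In N2, vit-2 stood at 21.4 and 18.1 fpm in treated RNA, against 7.23 and 12.3 fpm in untreated RNA, a log2 change of 0.98 ± 0.29 SE (limma adjusted p = 0.0197). vit-6 stood at 23.4 and 26.7 fpm in treated RNA, against 8.55 and 20.3 fpm in untreated RNA (log2 change 0.87, limma adjusted p = 0.0835). vit-1 was higher in treated RNA by 1.72 ± 0.50 SE (limma adjusted p = 0.0182). vit-5 (log2 change 0.56, limma adjusted p = 0.066) and vit-3 (0.15, 0.637) were not called, and vit-4 was below the filter. The proteases were both called, and cpr-4 was higher in treated RNA by 2.11 ± 0.32 SE (limma adjusted p = 0.00148) and asp-3 by 1.83 ± 0.22 SE (limma adjusted p = 5.56e-04).

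The N2 median over the 7 tested members was 0.98, against 1.86 over all genes tested and 3.33 over the 10137 protein-coding genes tested. Each member's change lay in the lower part of the protein-coding genes, above 10.6% of them for vit-3 and above 26.6% for cpr-4. Protein-coding genes in the range of mean level that the members span, 1.57 to 19.8 fpm, had a median of 2.95. In N2, 4 of the 7 members were called higher, where 57% of all genes tested were, and edgeR called 3. Without N2 replicate 1 or 2 of treated RNA, 1 member, asp-3, was called. These fold changes are relative to the library total. In N2, microRNAs took 19.4% ± 1.76 of it in treated RNA and 63.4% ± 1.77 in untreated RNA. Setting the median microRNA to 0 shifts every log2 change equally, which can change a sign but not an order among genes. The order does depend on the log2(fpm + 1) scale, which understates changes of low genes. In untreated RNA of N2, cpr-4 averaged 0.662 fpm and asp-3 0.895 fpm, so their places among protein-coding genes are uncertain.

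In meg-3 meg-4, 5 of 8 members were called higher in treated RNA, where 57.1% of all genes were. They were cpr-4 (log2 change 2.67, limma adjusted p = 0.00194), vit-1 (1.78, 0.0174), asp-3 (1.33, 0.0125), vit-5 (0.95, 0.00979) and vit-4 (0.81, 0.049). vit-2 (0.96, limma adjusted p = 0.091), vit-6 (0.73, 0.157) and vit-3 (0.39, 0.331) were not called. The changes lay above 11.5% (vit-3) to 39.1% (cpr-4) of the protein-coding genes tested, whose median was 3.20. edgeR called 1 member, cpr-4, and leaving out replicate 1 or 2 of treated meg-3 meg-4 left 1 or 2 members called.

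In rde-11 the treated means of vit-2 to vit-6 lay below the untreated means, although all 5 log2 changes were above 0 with microRNAs centred. vit-2 stood at 9.04 and 10.9 fpm in treated RNA, against 17.6 and 15.7 fpm in untreated RNA, and was called lower (log2 change -0.69 ± 0.21 SE, limma adjusted p = 0.0171), but higher by 1.10 (limma adjusted p = 0.00283) with microRNAs centred. vit-6 stood at 16.1 and 20.7 fpm in treated RNA, against 29.4 and 23.9 fpm in untreated RNA (log2 change -0.51, limma adjusted p = 0.063). Treated and untreated libraries did not overlap for either gene, but the share of all genes without overlap was not computed for this comparison. vit-3 (log2 change -0.44, limma adjusted p = 0.204), vit-4 (-0.28, 0.486), vit-5 (-0.01, 0.968) and asp-3 (0.36, 0.23) were not called, and cpr-4 was below the filter. vit-1 was the 1 of 7 members called higher (0.64 ± 0.20 SE, limma adjusted p = 0.0187), where 55.3% of all genes were called higher and 38.6% lower. These calls depended on the method. edgeR did not call vit-1 (log2 change 0.26, edgeR adjusted p = 0.395) but called vit-6 lower (-0.99, edgeR adjusted p = 2.74e-05). DESeq2 did not call vit-2 (-0.38, DESeq2 adjusted p = 0.388). The 7 changes lay above 8.15% (vit-2) to 12.4% (vit-1) of the protein-coding genes tested, whose median was 3.42. The vit-1 and vit-2 calls ended without rde-11 replicate 1 of treated RNA (limma adjusted p = 0.0683 and 0.0812) and without replicate 2 (0.0658 and 0.0507).

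**Figure D3:**
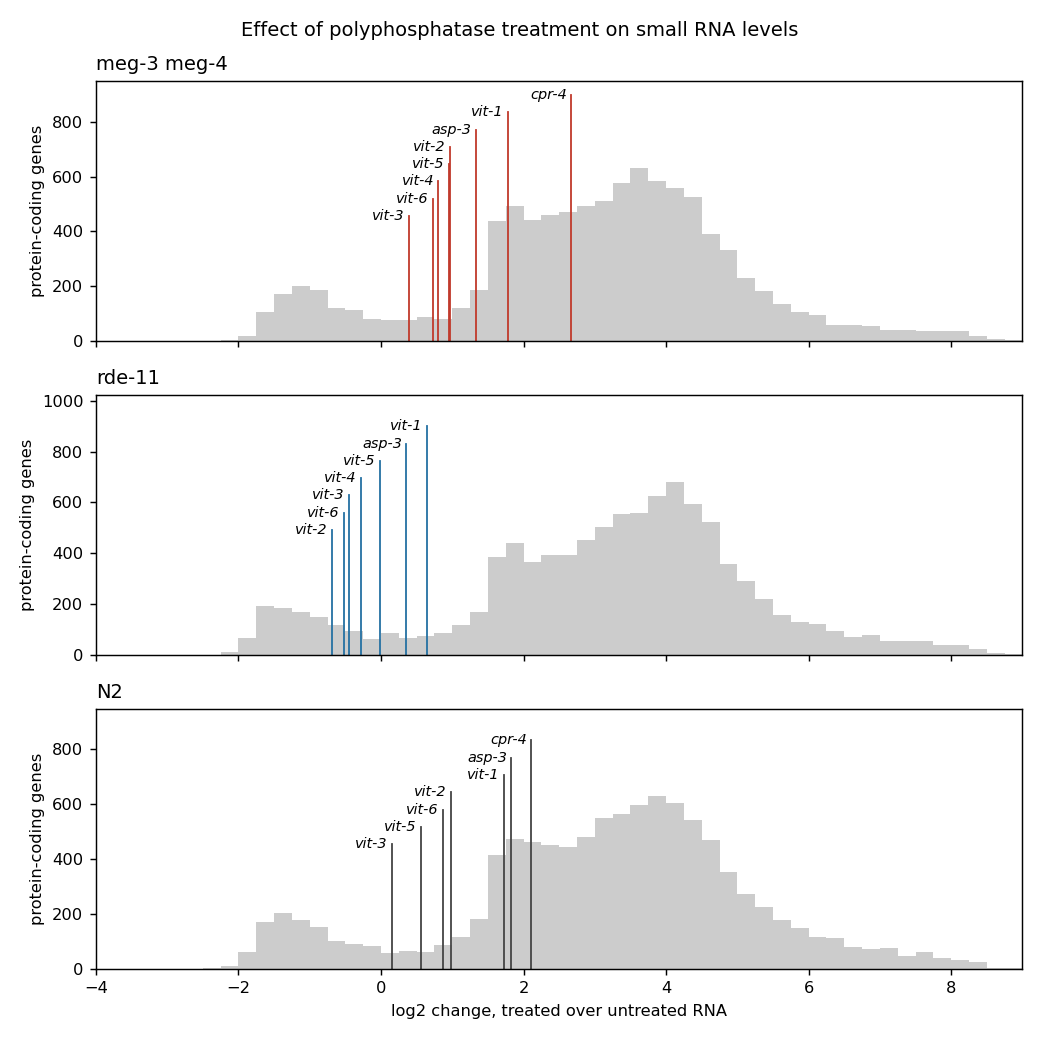
Number of protein-coding genes tested (grey bars, vertical axis) by log2 change of treated over untreated RNA (horizontal axis, bins of 0.25) in meg-3 meg-4, rde-11 and N2, with a vertical line at the change of each member tested. All lines lie left of the median of these genes (3.20 in meg-3 meg-4, 3.42 in rde-11 and 3.33 in N2), and the rde-11 lines lie between -0.69 and 0.64; line heights carry no value.

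The same values can be given as the share that yolk genes held of all reads at protein-coding genes, which is not a separate observation. In treated RNA the 6 yolk genes held 0.0163% and 0.0139% of these reads in meg-3 meg-4, with 0.00666% and 0.00745% in rde-11 and 0.0114% and 0.0117% in N2. In untreated RNA they held 0.0809% and 0.170% in meg-3 meg-4, with 0.175% and 0.123% in rde-11 and 0.0706% and 0.117% in N2. Every untreated library thus exceeded every treated library, while reads at protein-coding genes made up 55.1% to 64.8% of treated and 3.20% to 4.18% of untreated libraries. Per kilobase, vit-6 ranked 7370 from the top among 15963 protein-coding genes with reads in treated RNA of N2, and 1552 among 10111 in untreated RNA. vit-2 ranked 7797 in treated RNA and 1933 in untreated RNA of N2. In untreated RNA of rde-11, vit-6 ranked 1091 and vit-2 1475 among 10388.

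**Figure D4:**
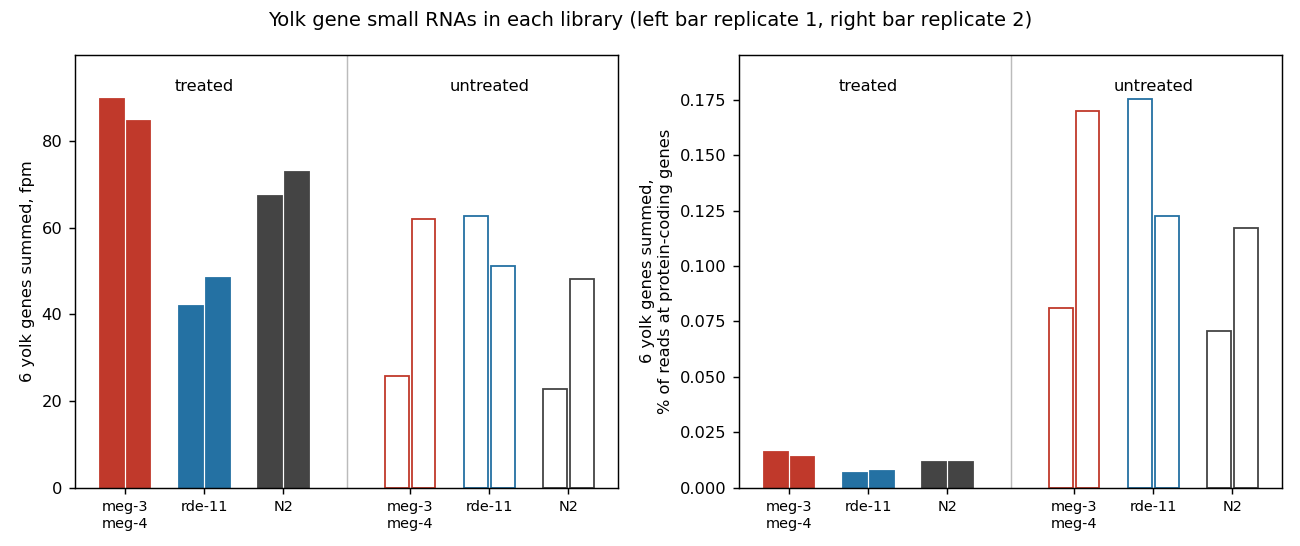
Summed small RNAs of vit-1 to vit-6 in each library, in fpm (left) and as a percentage of the reads at protein-coding genes (right), for meg-3 meg-4, rde-11 and N2, with filled bars for treated and open bars for untreated RNA. The treated sums are 89.8 and 84.7 fpm in meg-3 meg-4, against 41.9 and 48.3 fpm in rde-11 and 67.5 and 72.8 fpm in N2; the untreated sums of replicate 1 and 2 are 25.9 and 62.1 fpm in meg-3 meg-4, against 62.8 and 51.2 fpm in rde-11 and 22.8 and 48.2 fpm in N2.

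Genes that regulate or handle yolk did not move as 1 group. Of 13 listed, 9 were tested in treated RNA of rde-11, with 3 called higher and 2 lower, where 6.34% of all genes were called higher and 4.48% lower. The median of the 9 was 0.10, close to that of all genes, 0.11. unc-62, which encodes a homeodomain factor that activates vitellogenin genes, stood at 25.9 ± 1.84 fpm in rde-11 and 7.78 ± 0.531 fpm in N2 (log2 change 1.61, limma adjusted p = 2.96e-04), a call kept in every alternative run. rme-2, the yolk receptor gene, stood at 249 ± 63.2 fpm in rde-11 and 152 ± 53.2 fpm in N2 (0.73, limma adjusted p = 0.047), and skn-1, a stress-response factor gene, rose by 0.57 (limma adjusted p = 0.0375). dsc-4, which encodes a lipid transfer protein that loads yolk lipoproteins, stood at 5.46 ± 1.45 fpm in rde-11 and 11.04 ± 1.10 fpm in N2 (-0.91, limma adjusted p = 0.0337). daf-16, the FOXO factor gene of insulin signalling, fell by 0.52 (limma adjusted p = 0.032). The calls of rme-2, skn-1, dsc-4 and daf-16 ended with all 3 strains in 1 fit and without a filter on low values. Those of rme-2 and skn-1 also ended with the median gene centred, with edgeR and with DESeq2. That of dsc-4 also ended with DESeq2, and that of daf-16 with microRNAs centred.

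For treated meg-3 meg-4 libraries, 2 of 10 genes of that list were called lower and 0 higher, where 6.72% of all genes were called lower. daf-16 stood at 84.7 ± 12.1 fpm in meg-3 meg-4, against 238 ± 26.1 fpm in N2 (log2 change -1.49, limma adjusted p = 0.00304). sgk-1, a kinase gene that promotes yolk production, stood at 4.198 ± 0.0424 fpm in meg-3 meg-4, against 12.6 ± 2.03 fpm in N2 (-1.38, limma adjusted p = 0.0143). The sgk-1 call was lost without N2 replicate 2 and with DESeq2. Between the mutants, dsc-4 was higher for meg-3 meg-4 than for rde-11 (log2 difference 1.13, limma adjusted p = 0.0172), whereas daf-16 (-0.96, 0.00687), sgk-1 (-1.11, 0.0391) and unc-62 (-1.24, 0.018) were lower. Among all genes tested between the mutants, 4.55% were called higher and 12.6% lower. The sgk-1 call ended in 8 of 14 alternatives, among them edgeR and DESeq2, that of unc-62 in 5 and that of daf-16 in 3, all of them with the median gene centred and with DESeq2. Without rde-11 replicate 1 the sgk-1 and unc-62 calls ended, without rde-11 replicate 2 those of dsc-4, daf-16 and unc-62, and without either N2 replicate that of sgk-1.

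Other cathepsin-like protease genes, many of them intestinal, are read against the 4.48% of all genes called lower in rde-11 and the 8.27% called in meg-3 meg-4. Of 13 tested of 15, limma called 1 lower and 0 higher in treated RNA of rde-11 and 0 in meg-3 meg-4, where 2 had an unadjusted p under 0.05 and edgeR called 0. cpz-2, a cathepsin Z-like gene, stood at 4.77 ± 1.04 fpm in rde-11 and 13.1 ± 1.65 fpm in N2 (log2 change -1.30, limma adjusted p = 0.00487). Without a filter it was not called. The list's median was -0.30 in rde-11 and 0.27 in meg-3 meg-4. Between the mutants, cpr-1 (1.38, limma adjusted p = 0.0073), cpr-5 (1.33, 0.00699) and cpz-2 (1.08, 0.0195) were higher in meg-3 meg-4 and cpr-9 (-0.81, 0.0439) was lower. The shares of all genes there were 4.55% called higher and 12.6% lower. None of the cpr-1, cpr-5 and cpz-2 calls held without rde-11 replicate 1, and the cpr-9 call ended in 10 of 14 alternatives.

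Intestine markers also split in rde-11, where 4.48% of all genes were called lower and 6.34% higher. Of 8 tested of 13 in treated RNA, pept-1, an intestinal peptide transporter gene (2.99 ± 0.332 fpm in rde-11 and 8.02 ± 1.83 fpm in N2, log2 change -1.16, limma adjusted p = 0.0145), and vha-6, a proton pump subunit gene (4.59 ± 1.77 fpm in rde-11 and 10.1 ± 1.05 fpm in N2, -1.02, limma adjusted p = 0.0307), were called lower. Both calls ended without a filter, and that of vha-6 with all 3 strains in 1 fit. elt-7, the gene of a GATA factor of the intestine, was called higher, at 160 ± 9.25 fpm in rde-11 and 2.13 ± 0.704 fpm in N2. The median of the list was -0.22 in rde-11 and 0.17 in meg-3 meg-4. In meg-3 meg-4, 0 of 8 were called by limma or edgeR and 1 had an unadjusted p under 0.05, where limma called 8.27% of all genes. Between the mutants, pept-1 (1.39, limma adjusted p = 0.00554) and vha-6 (1.14, 0.0206) were higher in meg-3 meg-4 and elt-7 was lower (-5.80, 1.99e-06). In that comparison 4.55% of all genes were called higher and 12.6% lower. elt-2, whose product is the main intestinal GATA factor, was tested against N2 only in meg-3 meg-4, where it stood at 1.70 ± 0.00983 fpm and at 0.544 ± 0.0947 fpm in N2 (log2 change 0.81, limma adjusted p = 0.194).

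Markers of other tissues were counted beside the 6.34% of all genes called higher and 4.48% called lower in rde-11 treated RNA. Of 10 germline and oocyte markers tested, 2 were called higher and 0 lower, cbd-1, an eggshell gene (log2 change 0.52, limma adjusted p = 0.0308), and pgl-1, a germ granule gene (0.47, 0.0437). The summed 11 markers held 1348 to 1591 fpm in rde-11 and 1001 to 1272 fpm in N2. perm-2 was at 0 in N2 replicate 1, and no other marker was at 0 in these 4 libraries, and their part in the members' results was not tested. Both calls ended with the median gene centred and with edgeR. Of 3 muscle and 5 neuron markers tested, 0 were called by limma, 4 had an unadjusted p under 0.05 and edgeR called 2. In meg-3 meg-4, 0 of 10 germline markers, 2 of 3 muscle markers (unc-54 and lev-11, both lower) and 2 of 5 neuron markers (ric-4 and unc-31, both lower) were called, where 6.72% of all genes were called lower. The ric-4 and unc-31 calls ended with edgeR, with DESeq2 and without a filter, and the lev-11 call ended with DESeq2. That of unc-54 was kept in every alternative. Between the mutants, glp-1, unc-54 and ric-4 were called lower in meg-3 meg-4, where 12.6% of all genes were. Hypodermis markers, of which col-19 (0.755 fpm), bli-1 (0.14 fpm) and wrt-2 (0.111 fpm) had the highest means over the treated libraries, were not tested there.

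In untreated RNA, limma and edgeR called no gene of these lists in either mutant. In treated against untreated RNA of N2, the lists differed in their median log2 change, with 3.80 for yolk handling and regulators, 3.49 for germline and oocyte markers, 3.37 for neuron markers, 2.45 for intestine markers, 1.88 for the other proteases, 0.93 for muscle markers and -1.06 for the 1 hypodermis marker tested, beside 0.98 for the members.

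Over the 6 treated libraries, the genes whose log2(fpm + 1) followed the summed yolk genes most closely, among 2834 genes whose mean reached 50 fpm, were linc-15 (Pearson r = 0.993), Y57G11C.51 (0.988), linc-45 (0.987), mef-2 (0.986) and F59C12.4 (0.986). linc-15 averaged 229 fpm in meg-3 meg-4, against 45.7 fpm in rde-11 and 140 fpm in N2. For cpr-4 they were nmtn-1 (0.986), F44G4.3 (0.981) and his-37 (0.968), and for asp-3 vab-10 (0.978), ZK930.6 (0.973) and F49E7.2 (0.962). These are descriptions over 6 libraries that share strains and scaling.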

How the data were processed

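The authors deposited 4 tables, each with 1 mutant and N2 under 1 RNA treatment. Values in them are fpm for every library (a CPM unit) per the file headers, and each gene also has a deposited log2 fold change and adjusted p-value. Bowtie2, cutadapt, DESeq2 and HTSeq, with the build ce10, are named in the submitters' processing notes. The sources used here do not give roles, versions, strand setting or the treatment of reads with several alignments. The N2 columns of 1 treatment were equal in both tables. Averages by the authors fill 8 further columns, which stayed unused.

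All values above 0 (100%) were whole multiples of 1 step per library at a tolerance of 0.01 reads, which gave the reads. A floor of 3 reads and the 95% Poisson intervals cover counting error only, since no molecular identifiers are named, so that reads may be PCR copies. Gene classes, exon lengths and overlaps came from the Ensembl annotation of WBcel235, which is not the deposited build, so no coordinates are given; 41759 identifiers (99.3%) matched, and cpr-8 and cpr-9 were found under older names.

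Groups were compared by limma 3.58.1 (R 4.3.3; variance trend on level). Values were log2(fpm + 1), a scale that understates changes of low genes, and genes entered if their mean over the fitted libraries reached 1 fpm. A gene was called at a Benjamini-Hochberg adjusted p under 0.05 over all genes tested. The mutants were compared with each other over the 6 treated libraries, and treated with untreated RNA within a strain over 4. Recovered reads were also tested with edgeR 4.0.16 (quasi-likelihood, TMM) and DESeq2 1.42.0. Fits were tested on simulated data. Labels do not say that libraries of a group came from separate cultures, so p-values measure the spread between libraries, which may be technical. For 1 gene, 2 against 2 libraries cannot go below p = 0.333 in a two-sided exact permutation test, so none is given. The members and lists were chosen with earlier results of these data known. The named genes are the 8 members and, of each other list, the genes called in a comparison between strains or, with none, the 3 of highest mean treated level, and the genes most correlated with the yolk sum (5), cpr-4 and asp-3 (3 each); elt-2 and perm-2 were added after their values were seen.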

Additional observations from a re-analysis of the deposited data

How the results depend on the processing

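Counts of called members in the 8 comparisons came out within 1.5 times the value given above in 56 of 92 alternatives. In treated RNA of rde-11 the 3 calls became 0 without a filter and 0 with all 3 strains in 1 fit, and 1 to 3 when 1 library was left out. In treated meg-3 meg-4 libraries leaving out 1 library gave 0 in each case. Untreated rde-11 had 0 calls with a pseudocount of 0.5, no filter, the median gene centred, all 3 strains in 1 fit, edgeR or DESeq2, and 0 to 0 without 1 library; untreated meg-3 meg-4 had 0 to 1, the call being vit-6 without N2 replicate 2. For meg-3 meg-4 over rde-11 the count was 3 without a filter, 3 with microRNAs centred, 3 with the mutant libraries alone, and 0 to 5 without 1 library. With microRNAs centred, the treated RNA calls over untreated RNA were 8 in meg-3 meg-4, 7 in rde-11 and 7 in N2, beside 68.3%, 69.7% and 70.6% of all genes called higher in those strains. In meg-3 meg-4 they were 1 with edgeR and 2 with DESeq2, and 1 to 7 without 1 library; in rde-11 they were 1 with DESeq2 and 0 to 3 without 1 library, and in N2 they were 1 to 5 without 1 library. Where 1 library stood for a group, it was assumed to vary like the other group.

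Same-numbered libraries deviated together (r = 0.165 to 0.773 over genes of at least 50 fpm), but 2 pairs are too few to say that the numbers pair the samples. With replicate as a block, 1 member (vit-4) was called in treated meg-3 meg-4 libraries, 5 in treated RNA of rde-11 (vit-1 and vit-6 added), 6 between the mutants, 0 and 1 in untreated RNA of meg-3 meg-4 and rde-11, and 7, 3 and 6 for treated over untreated RNA in meg-3 meg-4, rde-11 and N2. The same fits called 15.9%, 25.5%, 31.6%, 0.660%, 1.01%, 93.4%, 95.5% and 95% of all genes in these comparisons, in the same order.

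Signs changed 49 times among alternatives, including for vit-2 in treated over untreated RNA of rde-11, which was called in both directions, and the cause was not tested. With microRNAs centred, log2 changes of meg-3 meg-4 against N2 in treated RNA were -0.15 for vit-2, -0.11 for vit-3, -0.034 for vit-5 and -0.019 for cpr-4; in untreated RNA they were -0.012 for vit-2 and -0.032 for vit-4. Those of treated over untreated RNA in rde-11 were 1.10 for vit-2, 1.35 for vit-3, 1.52 for vit-4, 1.78 for vit-5 and 1.28 for vit-6, and DESeq2 gave 0.34 for vit-5. With the median gene centred, untreated meg-3 meg-4 gave 0.15 for vit-3 and 0.080 for vit-5, and untreated rde-11 gave -0.10 for vit-3 and -0.15 for vit-5. edgeR gave 0.12 for vit-3 and 0.018 for vit-5 in untreated meg-3 meg-4 (DESeq2 gave 0.011 for vit-5), -0.15 for vit-3 and -0.17 for vit-5 in untreated rde-11, -0.18 for vit-3 and -0.12 for vit-6 in treated over untreated RNA of meg-3 meg-4, and -0.33 for vit-3 in that of N2.

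Leaving out 1 library gave these ranges where a sign changed. In treated meg-3 meg-4 they were -0.068 to 0.25 for vit-2, -0.0037 to 0.26 for vit-3, -0.029 to 0.44 for vit-5, -0.22 to 0.66 for cpr-4 and -0.38 to 0.0020 for asp-3. In untreated meg-3 meg-4 they were -0.34 to 1.16 for vit-1, -0.51 to 0.73 for vit-2, -0.58 to 0.36 for vit-3, -0.34 to 0.46 for vit-4 and -0.16 to 1.04 for vit-6. In untreated RNA of rde-11 they were -0.23 to 1.26 for vit-1, -0.29 to 0.41 for vit-3, -0.045 to 0.89 for vit-4 and -0.20 to 0.23 for vit-5. For treated over untreated RNA, vit-3 ranged over -0.081 to 0.86 in meg-3 meg-4 and -0.20 to 0.50 in N2, and vit-5 over -0.24 to 0.22 in rde-11. Of 31 calls of other listed genes between strains, 7 held in every alternative. Depth limits cpr-4 and asp-3 in untreated RNA and vit-3 and vit-4 throughout, which had at most 13 reads in a library.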
